A study of Homo sapiens with 8 samples.

Results

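The genes described here are 46 human germline genes that act in meiosis and in the PIWI-interacting RNA (piRNA) pathway. They were taken by symbol from a fixed list, as every array feature that is not a control and whose gene name in the files is on that list, which gave 61 probes of 60 bases among 50599 distinct probes and 46 of 34423 gene names. Transcript levels were read on 8 arrays of 1 color, all from HCT116 cells, which derive from a human colorectal carcinoma. The 4 clones carried a stably integrated plasmid and were selected with G418. CONT1 and CONT2 expressed a negative control miRNA, and TET1-KD1 and TET1-KD2 each expressed another artificial miRNA against *TET1*, which encodes an enzyme that oxidizes 5-methylcytosine. Each clone was profiled untreated and after 72 h in 1 µM 5-aza-dC, a cytidine analog that traps DNA methyltransferases, with 1 array per clone and treatment, so each condition has n = 2 and its replicates are different clones of 1 cell line. The titles gave the treatments, and a separate treatment field of the labels, which gives mock for all arrays of control clones and 5-aza-dC for all arrays of knockdown clones, goes against them. All untreated arrays and both treated arrays of knockdown clones lay on 1 slide, and both treated arrays of control clones lay on a second slide that was scanned separately. The response in the control clones, and every comparison of treated knockdown with treated control clones, therefore cannot be told apart from the slide, whereas the response in the knockdown clones lay within 1 slide. On that slide the untreated arrays lay in row 1 and the treated arrays in row 2, so row and treatment cannot be told apart there.

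In the germline, piRNAs guide PIWI proteins to transposon transcripts and keep transposons silent. The Tudor proteins (TDRD) and helicases such as DDX4 build the granules in which piRNAs are made. In meiosis, cohesin and axis proteins fold each chromosome into loops, the synaptonemal complex zips homologous chromosomes together, and recombination proteins repair programmed DNA breaks as crossovers. RNA-binding proteins such as DAZL govern translation in germ cells. In somatic cells most of these genes are silent, and for many of them that silence is known to involve promoter CpG methylation, which is placed when the germline separates from the soma, together with a Polycomb complex called PRC1.6.

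Signals are log2 values after each array was scaled on its 75th percentile. A probe that was not above background on an array holds a value of about 2 to 5 there, in many cases a surrogate set by the scanner software. Such values have no order among themselves, and a fold change against them is given as a lower bound, set by the lowest signal above background on the same arrays (3.98 to 4.61 over the 8 arrays). A fold measured on both sides is given as a log2 fold change ± SE, with 2 arrays against 2. Values on the 4 arrays of a treatment are listed in the order CONT1, CONT2, TET1-KD1, TET1-KD2, also where only the values are given. *TET1* itself, the gene targeted in the knockdown clones, was measured by 3 probes. On the brightest (chr10:70332072-70332131, hg19) it read 9.70, 9.75, 8.65 and 9.41 untreated and 9.64, 9.64, 8.99 and 9.48 after 5-aza-dC. TET1-KD1 was lowest under both treatments, and TET1-KD2 lay closer to the control clones. None of the 3 *TET1* probes passed the test between untreated knockdown and control clones (adjusted p = 0.610, 0.585 and 0.370, limma). The log2 fold changes were -0.69 and -0.98 on the probes above background on all arrays. On the other, both untreated knockdown arrays were below background, and the signal was at least 1.20-fold lower there than in the control clones. The paper measured the knockdown by RT-qPCR and reported less *TET1* mRNA in both knockdown clones than in control, with the larger reduction in TET1-KD1. Spike-in transcripts read up to 1.00 lower on the second slide before scaling, in the middle of the signal range. Of 11 colon epithelial markers, the keratins *KRT8*, *KRT18* and *KRT19* and the genes *EPCAM*, *CDH1*, *CDX1* and *CDX2* were above background on all arrays, while *LGR5* and *CEACAM5* were above it on none. *KRT20* was higher on all treated arrays (5.37, 5.43, 5.14 and 4.41 untreated and 9.77, 9.20, 8.87 and 9.20 treated), and *VIL1* was above background on 2 treated arrays only. A signal is an average over the culture, so more cells with a transcript and more transcript per cell cannot be told apart.

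Most of the silent germline genes became detectable after 5-aza-dC. Of the 46 genes, 28 had no probe above background on any of the 4 untreated arrays, and 15 of these 28 had a probe above background on all 4 treated arrays. Over all gene names the same switch was seen in 870 of 14687 genes, which is 5.92%. With each array left out in turn, between 15 and 17 members switched and the share over all gene names was 5.93% to 6.99%. The switch was seen for 6 of 9 silent piRNA pathway genes, 4 of 8 genes of the synaptonemal complex and axis, and 5 of 6 germ cell RNA-binding proteins and regulators. It was seen for none of the 4 silent recombination genes or the 1 silent cohesin gene. Of the 28, 8 were above background on no array, namely *PIWIL1*, *ASZ1*, *SYCP2*, *TEX12*, *HORMAD2*, *DMC1*, *SPO11* and *MSH4*, and the rest were above it on some treated arrays only. Of the members outside the 28, 13 were above background on all 8 arrays, and 5 were above it on at least 1 untreated array but not on all 8.

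**Figure D1:**
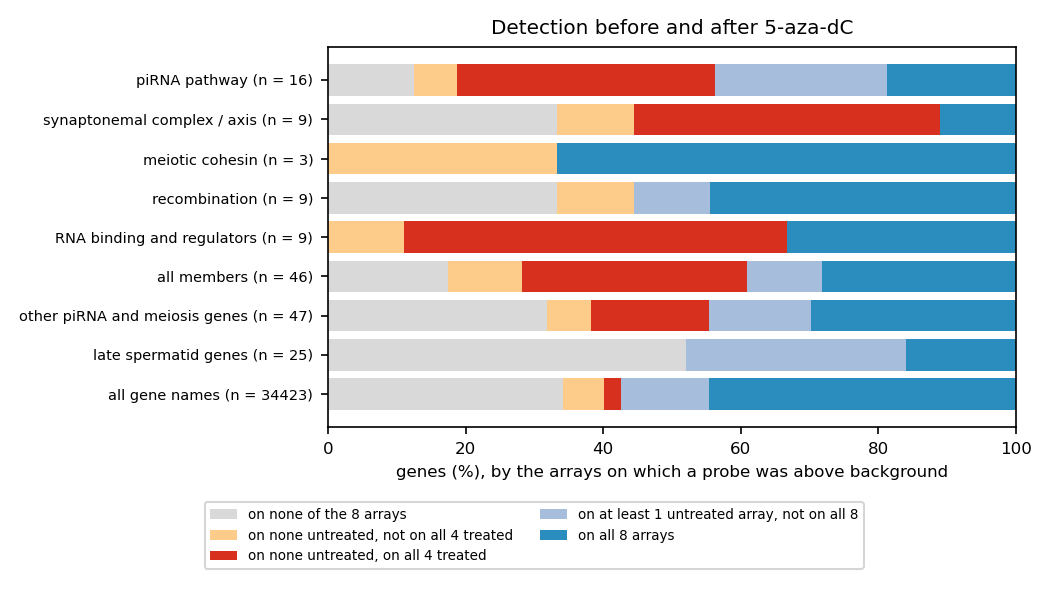
Share of genes (horizontal axis, percent) in each detection class, for the 5 role groups, all 46 members, 2 further lists and all gene names, with the number of genes in each row. The red segments, genes above background on no untreated array and on all 4 treated arrays, hold 15 of the 46 members, 8 of 47 other piRNA and meiosis genes, 0 of 25 late spermatid genes and 870 of 34423 gene names.

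In the test across all probes, 35 members had a probe that could be tested, and 21 of them passed the filter on dim probes only because they were above background after 5-aza-dC, so a count among the 35 is inflated by the filter. In the knockdown clones 26 of the 35 rose and 0 fell (adjusted p below 0.05, limma), against 9.45% of 19688 gene names that rose and 3.09% that fell. In the control clones 26 rose and 2 fell, against 20.5% and 21.3% of all gene names. Without the filter, over all 46 members, 23 rose in the knockdown clones, where 4.42% of 34395 gene names did, and 25 rose in the control clones, where 11.5% did. The median log2 fold change of the 35 was 3.46 in the knockdown clones and 3.73 in the control clones, and over all gene names it was -0.06 and -0.05. With every dim value raised to the lowest signal above background, an alternative chosen after seeing the data, the medians of the members were 2.24 and 2.73, and 22 and 25 members rose. Over all gene names the medians were then -0.08 and -0.02, and 7.11% and 19.7% rose. In all, 24 members rose in both kinds of clone, as did 1675 of the 19688 gene names. Among the 24 is *TEX15*, which was below background on all arrays of control clones, so its call there rests on values that have no order. *SYCP1* and *NANOS2* passed the test in the knockdown clones but not in the control clones. *GTSF1* and *STK31* passed it in the control clones but not in the knockdown clones. A call in 1 kind of clone alone does not show that the responses differed. The methods' t-test, which takes the spread of each probe from 4 arrays alone, called 0 of the 35 in the knockdown clones after adjustment and 18 in the control clones. In the knockdown clones 26 had an unadjusted p below 0.05 by that test. The share over all gene names was not counted for it, so these counts have no background beside them.

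**Figure D2:**
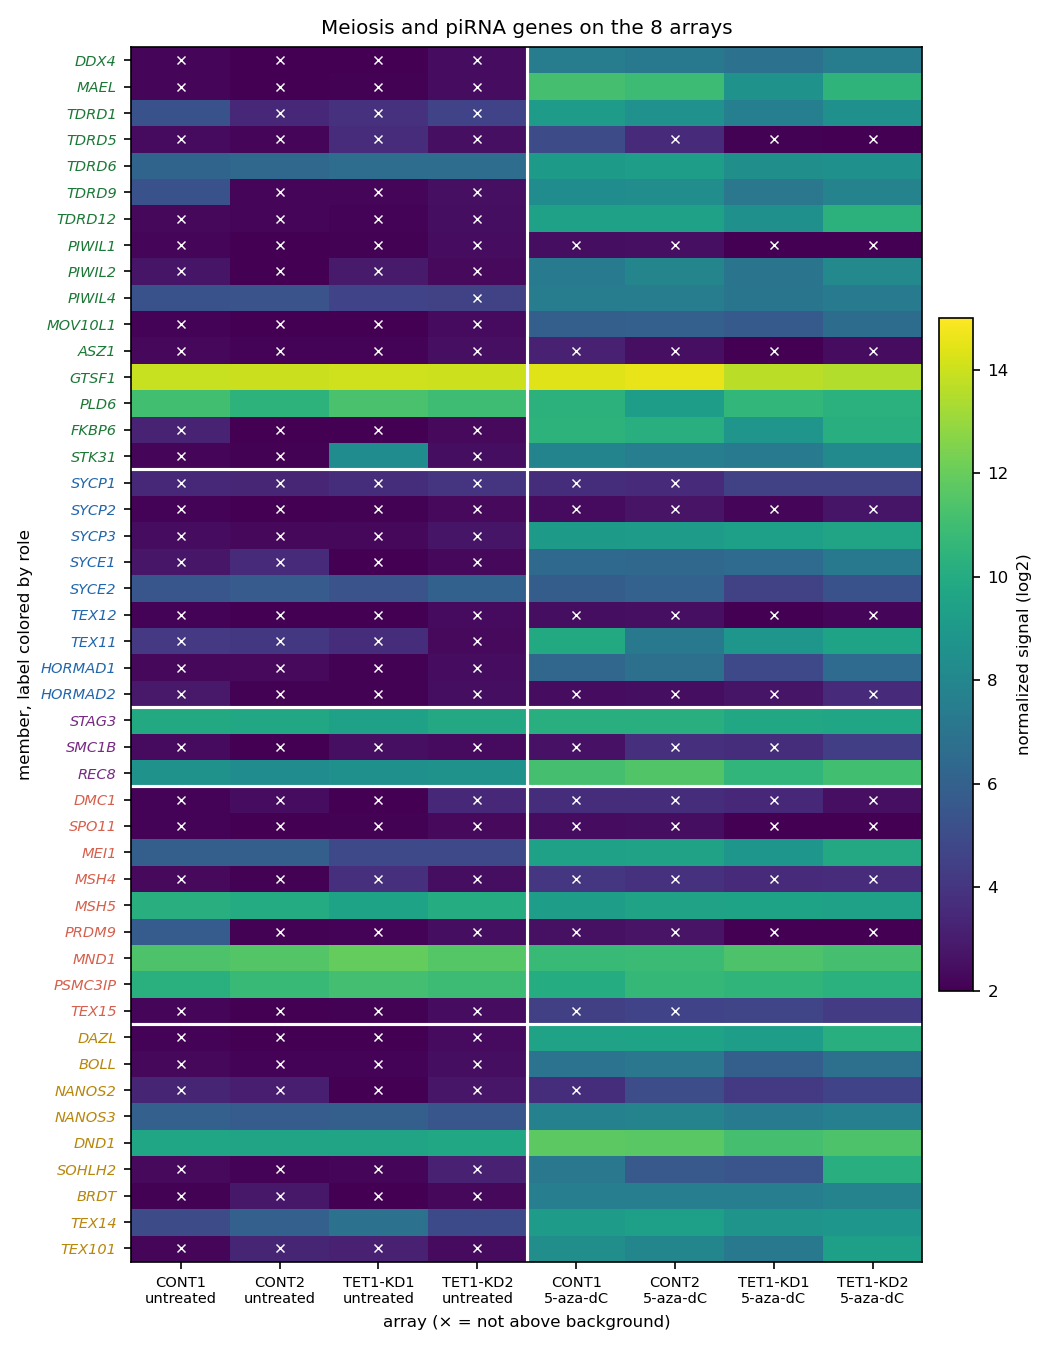
Normalized signal (log2, color) of the 46 members, 1 row each by their brightest tested probe or, where none was tested, their brightest probe, on the 8 arrays, grouped by role. A cross marks an array on which the probe was not above background. Crosses fill most of the left, untreated side and few of the right, treated side, and 13 members, among them *GTSF1*, *PLD6*, *MSH5*, *DND1* and *REC8*, have no cross on any array.

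Of the genes for PIWI proteins, which bind piRNAs, those for PIWIL2 and PIWIL4 rose. *PIWIL2* read 2.72, 1.95, 2.93 and 2.32 untreated, all below background, and 7.41, 7.90, 7.02 and 8.10 after 5-aza-dC. It rose at least 10.1-fold in the control clones (adjusted p = 4.70e-04) and at least 8.94-fold in the knockdown clones (adjusted p = 0.00116). *PIWIL4*, the family member that acts in the nucleus, was already above background on 3 untreated arrays, at 5.30, 5.35, 4.63 and 4.49, and read 7.51, 7.53, 7.07 and 7.42 treated (chr11:94354223-94354282). Its log2 fold change was 2.20 ± 0.17 in the control clones (adjusted p = 3.37e-04). It rose in the knockdown clones too (adjusted p = 2.46e-04), with no fold given, since untreated TET1-KD2 was below background. *PIWIL1* was above background on no array. The RNA helicase gene *DDX4* (chr5:55111204-55112302) went from values below background of 2.16, 2.00, 2.03 and 2.41 to 7.50, 7.26, 6.91 and 7.52, a rise of at least 8.37-fold in the control clones (adjusted p = 7.20e-05) and at least 7.03-fold in the knockdown clones (adjusted p = 1.30e-04). The treated arrays lay above all untreated arrays for each of the 3 genes that rose.

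*MAEL* encodes a protein of the piRNA granule that is needed for transposon silencing, and of all members it had the highest lower bound in the control clones. It read 2.22, 2.04, 2.08 and 2.44 untreated and 11.18, 10.93, 8.68 and 10.43 treated (chr1:166991073-166991132), so it rose at least 107-fold in the control clones (adjusted p = 1.38e-04) and at least 35.7-fold in the knockdown clones (adjusted p = 4.36e-04). Its treated value in TET1-KD1 lay below those of the other 3 clones. *FKBP6*, a co-chaperone in piRNA loading (chr7:72772335-72772394), read 3.30, 1.94, 1.95 and 2.32 and then 10.39, 10.21, 8.79 and 10.18. That was a rise of at least 63.2-fold in the control clones (adjusted p = 3.12e-04) and at least 34.0-fold in the knockdown clones (adjusted p = 6.04e-04). *FKBP6* has partial copies on its chromosome, which the probe may share. *MOV10L1*, the helicase that starts the processing of piRNA precursors, had 3 probes. The one at chr22:50530553-50530612 read 2.13, 1.97, 2.00 and 2.37 untreated and 5.92, 6.01, 5.69 and 6.59 treated and rose at least 3.13-fold in the control clones (adjusted p = 3.69e-04) and at least 3.34-fold in the knockdown clones (adjusted p = 5.99e-04). Its probes further along the gene, at chr22:50597609-50597668 and chr22:50599418-50599477, stayed below background on all arrays but 1, the treated CONT2 array (6.65).

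The Tudor proteins bind methylated arginines of PIWI proteins. *TDRD12* (chr19:33264398-33268073) read 2.26, 2.23, 2.11 and 2.47 untreated and 9.46, 9.43, 8.54 and 10.34 treated, a rise of at least 35.0-fold in the control clones (adjusted p = 2.98e-04) and at least 32.8-fold in the knockdown clones (adjusted p = 4.98e-04). *TDRD1* had 2 probes that both rose. The one counted, at chr10:115985909-115985968, read 5.26, 3.51, 3.84 and 4.64 and then 9.19, 8.57, 7.63 and 8.53, with the untreated CONT1 array alone among the untreated arrays above background. It rose in the control clones (adjusted p = 0.00288), where untreated CONT2 was below background and no fold is given, and in the knockdown clones it rose at least 12.7-fold (adjusted p = 0.0135), lost without either the treated TET1-KD2 or the untreated TET1-KD1 array (adjusted p = 0.0673 to 0.0833). The other, at chr10:115991963-115992022, was below background on all untreated arrays and read 11.02, 10.35, 9.10 and 10.11 treated, which was at least 82.7-fold in the control clones (adjusted p = 5.99e-05) and at least 36.8-fold in the knockdown clones (adjusted p = 1.37e-04). *TDRD9*, a helicase, had a single untreated array above background, CONT1, among values of 5.30, 2.16, 2.17 and 2.53 (chr14:104518565-104518624). After treatment it read 8.31, 8.35, 7.18 and 7.80. It rose in the control clones (adjusted p = 0.00986), where 1 of the untreated arrays was below background, so no fold is given, and the rise was at least 8.51-fold in the knockdown clones (adjusted p = 0.0177), lost without any 1 of the treated TET1-KD1, treated TET1-KD2, untreated TET1-KD1 and untreated TET1-KD2 arrays (adjusted p = 0.0510 to 0.103). *TDRD6* had 1 probe above background on all arrays, which gives a fold measured on both sides. It read 6.17, 6.39, 6.63 and 6.66 untreated and 9.09, 9.31, 8.47 and 8.54 treated (chr6:46670025-46670084), log2 fold changes of 2.92 ± 0.16 in the control clones (adjusted p = 9.86e-05) and 1.86 ± 0.16 in the knockdown clones (adjusted p = 8.27e-04). Its rise was smaller in both knockdown clones than in both control clones, and the test of that difference gave -1.06 ± 0.22 (adjusted p = 0.0501), just short of passing. The second *TDRD6* probe (chr6:46671931-46671990) was above background only on the untreated TET1-KD2 array (5.91) and read 2.47, 3.08, 2.61 and 1.83 treated, so it did not show the rise. *TDRD5* was not tested, and only its treated CONT1 value was above background (5.03).

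*STK31*, a Tudor domain kinase of the germline, gave probes that disagreed. On the counted probe (chr7:23872041-23872100) the untreated TET1-KD1 array stood apart, with 2.24, 2.07, 8.30 and 2.49 untreated and 7.85, 7.56, 7.33 and 8.16 treated. It rose at least 10.5-fold in the control clones (adjusted p = 0.0383), but not with the clone as a block (adjusted p = 0.0520, 4.52e-04 to 0.131 over its 21 alternatives), lost without any 1 array other than untreated TET1-KD1 and untreated TET1-KD2 (adjusted p = 0.0598 to 0.131). Its change in the knockdown clones did not pass the test (adjusted p = 0.417). The neighboring probe (chr7:23871856-23871915) read 2.39, 3.60, 2.04 and 2.40 untreated, none above background, and 6.62, 6.79, 5.65 and 6.36 treated, and rose at least 5.23-fold in the control clones (adjusted p = 0.00143) and at least 3.04-fold in the knockdown clones (adjusted p = 0.00281).

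Like *TDRD6*, the piRNA genes *GTSF1* and *PLD6* were above background on all untreated arrays. *GTSF1*, a zinc finger protein that assists PIWI proteins in cleaving transcripts, read 13.90, 13.97, 14.04 and 14.03 untreated and 14.38, 14.57, 13.63 and 13.48 treated (chr12:54849745-54849804). The treated control arrays were the highest and the treated knockdown arrays the lowest of the 8. Its log2 fold change was 0.54 ± 0.15 in the control clones (adjusted p = 0.0300) and -0.48 ± 0.15 in the knockdown clones (adjusted p = 0.0970). The difference between these responses was -1.01 ± 0.21 (adjusted p = 0.0486), the only member past that threshold, where 5.27% of all gene names were. It did not pass with the clone as a block (adjusted p = 0.0579, 0.0283 to 0.330 over its 20 alternatives), nor without any 1 of the 8 arrays. After calibration by the spike-ins, the change in the control clones turned to -0.12 (adjusted p = 0.492, 0.0132 to 0.517 over its 22 alternatives), and that call was lost without any 1 of the treated CONT1, treated CONT2, untreated CONT1 and untreated CONT2 arrays (adjusted p = 0.0539 to 0.146). *PLD6*, a mitochondrial nuclease of piRNA maturation, was above background on all arrays, between 9.23 and 11.27, and passed no test (adjusted p = 0.373 in the knockdown and 0.117 in the control clones), but with the clone as a block it was lower in the control clones (adjusted p = 0.0154). *ASZ1* was above background on no array.

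Among genes of the synaptonemal complex and the chromosome axis, *SYCP3* encodes a core axis protein. It read 2.45, 2.28, 2.27 and 2.71 untreated and 9.10, 9.13, 9.32 and 9.57 treated (chr12:102128796-102130847), and rose at least 27.9-fold in the control clones (adjusted p = 3.00e-05) and at least 33.0-fold in the knockdown clones (adjusted p = 4.28e-05). Its treated values lay close together in the 4 clones and far above the untreated ones. *SYCE1*, of the central element, read 2.80, 3.58, 1.93 and 2.29 and then 6.47, 6.35, 6.57 and 7.27 (chr10:135370308-135370611), a rise of at least 4.26-fold in the control clones (adjusted p = 0.00100) and at least 5.73-fold in the knockdown clones (adjusted p = 4.02e-04). *TEX11*, an X-linked crossover gene, was uneven in the control clones, with 4.16, 4.12, 3.69 and 2.32 untreated and 9.90, 7.23, 8.81 and 9.53 treated (chrX:69748974-69749033). It rose at least 19.0-fold in the control clones (adjusted p = 0.00967) and at least 27.3-fold in the knockdown clones (adjusted p = 0.00731), lost without the treated TET1-KD2 array (adjusted p = 0.0531). *HORMAD1*, which marks unsynapsed axes, read 2.27, 2.31, 2.07 and 2.44 and 6.29, 6.80, 4.86 and 6.56 (chr1:150679219-150679278). Its rise was at least 4.68-fold in the control clones (adjusted p = 0.00184) and at least 2.48-fold in the knockdown clones (adjusted p = 0.00972), and the call in the knockdown clones was lost with dim values raised (adjusted p = 0.164, 0.00115 to 0.316 over its 22 alternatives) and without the untreated TET1-KD1 array. A second *HORMAD1* probe (chr1:150675852-150676635) read 5.46, 4.92, 5.26 and 6.62 treated and was below background untreated. TET1-KD1 was the lowest treated array on the first of these probes and not on the second.

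*SYCP1*, the transverse filament that links paired axes, hardly left the background. It read 3.44, 3.40, 3.72 and 3.96 untreated and 3.69, 3.60, 4.54 and 4.51 treated (chr1:115537395-115537548), above background only on the treated knockdown arrays. The rise in the knockdown clones was at least 1.09-fold (adjusted p = 0.0369), a call lost in 17 of 22 alternatives (adjusted p = 0.0321 to 0.864 over its 22 alternatives), and lost without any 1 of the 8 arrays (adjusted p = 0.0575 to 0.128). In the control clones its adjusted p was 0.266. *SYCE2*, another central element gene, was expressed without treatment, between 4.50 and 6.08 on the 8 arrays. Its log2 fold change in the knockdown clones, -0.81 ± 0.34, did not pass the test (adjusted p = 0.183). With the clone as a block it did (adjusted p = 0.0261), and so did *PSMC3IP* (0.0451), so 2 members were lower in the knockdown clones, against 0 without the block. The response of *SYCE2* then also differed between the kinds of clone (adjusted p = 0.0477, and 0.205 without the block). *SYCP2*, *TEX12* and *HORMAD2* were not tested.

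The meiotic cohesin *REC8*, which holds sister chromatids together through the first division, was expressed in untreated cells and rose further. It read 8.60, 8.31, 8.52 and 8.64 untreated and 11.16, 11.45, 10.55 and 11.08 treated (chr14:24649400-24649459), a log2 fold change of 2.85 ± 0.23 in the control clones (adjusted p = 4.14e-04) and 2.24 ± 0.23 in the knockdown clones (adjusted p = 0.00189). *STAG3*, its partner subunit, was read differently by its 3 probes. The brightest, at chr7:99780378-99780428, read 9.87, 9.73, 9.45 and 9.84 untreated and 10.19, 10.18, 9.77 and 9.72 treated. It passed no test, with 0.38 ± 0.18 in the control clones (adjusted p = 0.128) and 0.10 ± 0.18 in the knockdown clones (adjusted p = 0.764). The probe at chr7:99811912-99811971 read 7.89, 8.30, 8.19 and 8.18 untreated and 10.07, 10.41, 9.94 and 10.70 treated, changes of 2.15 ± 0.29 in the control clones (adjusted p = 0.00256) and 2.13 ± 0.29 in the knockdown clones (adjusted p = 0.00633). The third, at chr7:99811369-99811428, was below background untreated and read 6.65, 6.85, 6.57 and 7.44 treated, a rise of at least 5.40-fold in the control clones (adjusted p = 7.18e-04) and at least 6.08-fold in the knockdown clones (adjusted p = 0.00186). So the 2 probes toward the 3′ end of *STAG3* rose and the one nearer its start did not pass the test. *STAG3* has pseudogene copies that its probes may share. *SMC1B* was not tested, and only its treated TET1-KD2 value was above background (4.44).

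Of 9 recombination genes, *MEI1*, required for the formation of meiotic DNA breaks, rose in both kinds of clone. It read 5.91, 5.95, 4.85 and 4.88 untreated and 9.45, 9.48, 8.84 and 9.82 treated (chr22:42195336-42195395), log2 fold changes of 3.53 ± 0.31 in the control clones (adjusted p = 4.99e-04) and 4.47 ± 0.31 in the knockdown clones (adjusted p = 3.52e-04). *TEX15*, which acts in break repair and in piRNA-directed methylation, moved at the edge of detection, from 2.22, 2.04, 2.06 and 2.44 to 4.48, 4.63, 4.69 and 4.28, with only the treated knockdown arrays above background. Its change was at least 1.06-fold in the knockdown clones (adjusted p = 0.00136), but no longer passed with dim values raised (adjusted p = 0.838, 9.32e-04 to 0.838 over its 22 alternatives). In the control clones it was called from values below background on all 4 arrays (adjusted p = 5.24e-04), so no fold is given. *MSH5*, *MND1* and *PSMC3IP* were well above background in untreated cells and none was called higher. *MSH5*, a crossover factor, read 10.15, 9.98, 9.52 and 10.06 and 9.28, 9.48, 9.52 and 9.42 (chr6:31730225-31730284). It fell by 0.68 on the log2 scale in the control clones (adjusted p = 0.0444), but not with the clone as a block (adjusted p = 0.0603, 0.0180 to 0.188 over its 22 alternatives), and it was lost without any 1 array other than untreated TET1-KD1 and untreated TET1-KD2 (adjusted p = 0.0633 to 0.188). *MND1*, a cofactor of strand exchange, read 11.35, 11.52, 11.92 and 11.57 and 10.80, 10.88, 11.39 and 11.15 (chr4:154335985-154336044) and fell by 0.60 in the control clones (adjusted p = 0.0424, 0.00586 to 0.196 over its 22 alternatives), lost without any 1 of the treated CONT1, treated CONT2, untreated CONT1 and untreated CONT2 arrays (adjusted p = 0.106 to 0.196). In the knockdown clones neither passed the test (adjusted p = 0.394 and 0.158). *MSH5* shares sequence with a read-through transcript. *PSMC3IP*, the partner of *MND1*, lay between 10.06 and 11.10 and was not called (adjusted p = 0.221 and 0.618). The nuclease *SPO11*, the recombinase *DMC1* and *MSH4* were above background on no array, and *PRDM9*, which sets recombination hotspots and has a close copy in *PRDM7*, on the untreated CONT1 array alone (5.76).

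Among RNA-binding proteins and regulators of germ cells, *DAZL*, which binds the transcripts of many meiotic genes, read 2.15, 1.95, 1.97 and 2.36 untreated and 9.47, 9.53, 9.27 and 10.18 treated (chr3:16628817-16628876). It rose at least 36.3-fold in the control clones (adjusted p = 4.95e-05) and at least 40.0-fold in the knockdown clones (adjusted p = 6.99e-05). *BOLL*, its relative, read 2.28, 2.10, 2.14 and 2.47 and 6.94, 7.15, 5.94 and 6.79 (chr2:198591907-198591966), and rose at least 6.62-fold in the control clones (adjusted p = 1.60e-04) and at least 3.90-fold in the knockdown clones (adjusted p = 4.71e-04). A second *BOLL* probe (chr2:198607830-198621157) rose too, to 6.12, 6.37, 5.09 and 6.49. *BRDT*, the testis bromodomain protein that reads acetylated histones, went from 2.10, 2.84, 1.94 and 2.30 to 7.54, 7.58, 7.55 and 7.82 (chr1:92470689-92470748), a rise of at least 9.48-fold in the control clones (adjusted p = 1.05e-04) and at least 9.74-fold in the knockdown clones (adjusted p = 1.24e-04). *TEX101*, a sperm surface glycoprotein, went from 2.16, 3.33, 3.21 and 2.36 to 8.40, 7.97, 7.24 and 9.36 (chr19:43922526-43922585), at least 14.6-fold in the control clones (adjusted p = 0.00257) and at least 14.9-fold in the knockdown clones (adjusted p = 0.00582). For all 4 genes the lowest treated array lay above background and above every untreated array.

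*DND1*, which blocks miRNA access to germ cell transcripts, was expressed before treatment, at 9.63, 9.58, 9.59 and 9.74, and read 11.74, 11.70, 11.19 and 11.36 after it (chr5:140050391-140050450), log2 fold changes of 2.12 ± 0.15 in the control clones (adjusted p = 2.37e-04) and 1.61 ± 0.15 in the knockdown clones (adjusted p = 0.00116). Its second probe (chr5:140051086-140051145) read 5.86, 6.22, 5.95 and 6.26 and 7.11, 7.33, 7.80 and 8.24. The first probe was highest in the treated control clones and the second in the treated knockdown clones, and neither difference passed the test (adjusted p = 0.0845 and 0.0597). *NANOS3*, a translational repressor of germ cells, read 5.97, 5.79, 5.92 and 5.47 and 7.69, 7.80, 7.37 and 7.59 (chr19:13991510-13991569), changes of 1.87 ± 0.20 in the control clones (adjusted p = 0.00106) and 1.78 ± 0.20 in the knockdown clones (adjusted p = 0.00268). *TEX14*, of the intercellular bridges between germ cells, read 5.02, 5.99, 6.90 and 4.94 and 9.15, 9.33, 8.71 and 8.81 (chr17:56634110-56634169), with 3.73 ± 0.63 in the control clones (adjusted p = 0.00549) and 2.84 ± 0.63 in the knockdown clones (adjusted p = 0.0379), and the call in the knockdown clones was lost in 11 of 23 alternatives (adjusted p = 0.00495 to 0.377 over its 23 alternatives), and lost without any 1 array other than untreated TET1-KD1 (adjusted p = 0.0556 to 0.160). *NANOS2* stayed close to background, at 3.36, 3.09, 2.02 and 2.80 and 3.72, 5.09, 4.21 and 4.61 (chr19:46416469-46416528), and was at least 1.01-fold higher in the knockdown clones (adjusted p = 0.0482), a call lost in 15 of 22 alternatives, also with the clone as a block (adjusted p = 0.0554, 0.0221 to 0.989 over its 22 alternatives), and lost without any 1 array other than treated CONT1 and treated CONT2 (adjusted p = 0.0779 to 0.204). In the control clones the test of *NANOS2* gave an adjusted p of 0.0950. *SOHLH2*, a transcription factor of early germ cells, was uneven, with 2.32, 2.12, 2.17 and 3.18 untreated, all below background, and 7.19, 5.63, 5.42 and 10.15 treated (chr13:36742517-36742576). The treated TET1-KD2 array stood far above the others, also on the second probe (6.31, the only value of that probe above background). With that spread its changes, at least 4.27-fold in the control clones (adjusted p = 0.0588) and at least 10.5-fold in the knockdown clones (adjusted p = 0.0745), did not pass the test, although all treated arrays were above background. With the clone as a block both passed (adjusted p = 0.0302 and 0.0454). *SOHLH2* shares exons with a read-through transcript of its neighbor.

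**Figure D3:**
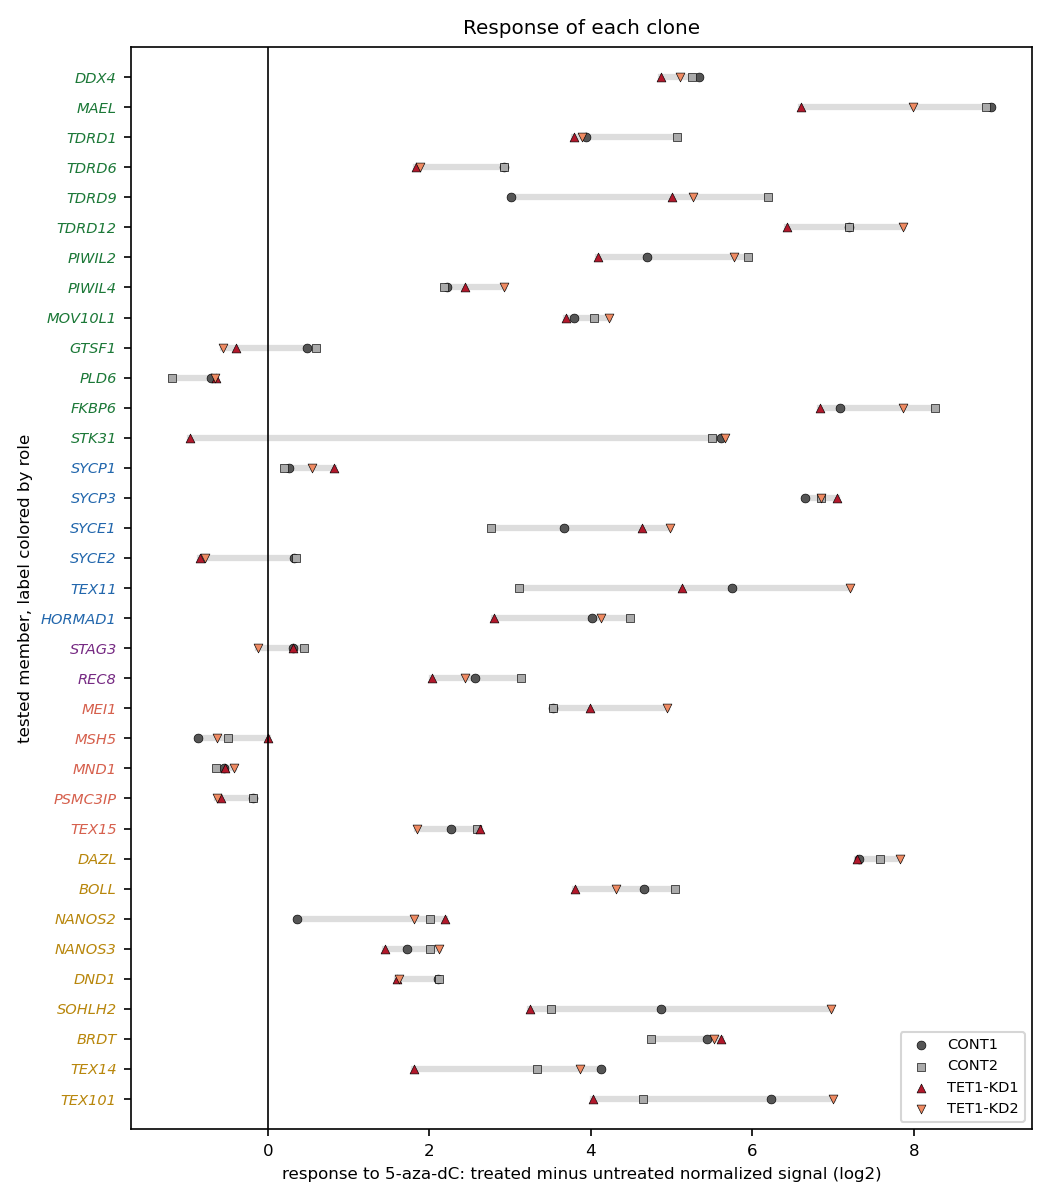
Response of each clone, treated minus untreated normalized signal (log2, horizontal axis), for the 35 tested members, with gray symbols for control clones, red and orange symbols for knockdown clones and a gray bar over the range. Most members lie right of 0 in all 4 clones, *GTSF1*, *SYCE2*, *MSH5*, *MND1*, *PSMC3IP*, *PLD6* and *STAG3* lie near 0, and the *STK31* symbol of TET1-KD1 lies left of 0. Responses of members below background untreated rest on values that have no order.

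Of the 35 tested members 24 rose in both kinds of clone, against 1675 of 19688 gene names, and the filter inflates that count. The 24 include *TEX15*, called in the control clones from values below background. The promoters of the members were also described. A pair of elements is known to bind subunits of PRC1.6 at germline genes, the E-box CACGTG (MGA and MAX) and the E2F-type element GCGGGAA (E2F6 and its partner TFDP1). Both strands were searched, and in the windows that held both motifs they lay apart. RefSeq promoter windows (GRCh38.p14, from 250 bases before to 50 after a transcript start) were at hand for 39 of the 46 members, as 52 windows. The E-box was in 14 of these 52 windows (26.9%), against 7.26% of 35116 windows of all genes and 8.34% of windows of protein-coding genes. The E2F-type element was in 16 (30.8%), against 6.55% and 8.13%. By gene, 24 of the 39 members (61.5%) held at least 1 of the elements, against 15.7% of all genes and 20.1% of protein-coding genes. The median number of CpG sites per window was 26.5, against 14 over all genes and 21 over protein-coding genes. These counts describe the windows, and no test was run on them.

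By detection class, an E-box was found for 6 of the 13 members with a window that switched on with 5-aza-dC (*BRDT*, *DAZL*, *MAEL*, *SOHLH2*, *SYCE1* and *TDRD12*), for 0 of the 7 that stayed below background on all arrays, for 2 of 11 that were above it on all 8 and for 3 of 8 with other patterns. The E2F-type element was found for 2 of the 13, 3 of the 7, 6 of the 11 and 4 of the 8. The classes had medians of 27, 29, 26 and 19 CpG sites per window in that order. By gene, the E-box was found for 8.8% of all genes and 10.9% of protein-coding genes, and the E2F-type element for 7.8% and 10.5%. The classes are small, and the E-box counts of 0 of 7 and 2 of 11 lie near these shares. The window at hand for *DDX4*, which switched on, held 1 CpG, and that of *SYCP2*, which stayed off, held 41. Whether the *DDX4* window is the start used in these cells was not tested, so it does not give the CpG content of its active promoter. No match says only that these letters are absent from this window. The 250 bases before the transcript start are shown for 6 of the members that switched on or rose and hold a motif there, with the motif in capitals, and last for *SYCP2* as a CpG-rich window of a gene that stayed off.
TDRD1, chr10:114179037-114179286, plus strand: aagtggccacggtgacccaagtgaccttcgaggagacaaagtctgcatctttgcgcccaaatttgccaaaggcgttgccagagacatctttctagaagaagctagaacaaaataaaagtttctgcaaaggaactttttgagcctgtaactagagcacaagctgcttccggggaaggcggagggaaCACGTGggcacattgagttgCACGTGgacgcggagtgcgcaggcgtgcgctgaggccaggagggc
TDRD12, chr19:32719517-32719766, plus strand: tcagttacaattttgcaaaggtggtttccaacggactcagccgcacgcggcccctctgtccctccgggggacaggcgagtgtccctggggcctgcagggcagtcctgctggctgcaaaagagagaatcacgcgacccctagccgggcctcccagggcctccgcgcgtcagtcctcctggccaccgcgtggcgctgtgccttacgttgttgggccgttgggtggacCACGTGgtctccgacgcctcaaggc
DAZL, chr3:16604791-16605040, minus strand: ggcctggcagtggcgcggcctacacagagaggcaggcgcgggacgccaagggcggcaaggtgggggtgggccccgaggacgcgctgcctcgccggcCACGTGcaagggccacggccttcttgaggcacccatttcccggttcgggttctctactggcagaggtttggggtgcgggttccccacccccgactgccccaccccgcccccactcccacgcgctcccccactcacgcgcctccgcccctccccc
MAEL, chr1:166989030-166989279, plus strand: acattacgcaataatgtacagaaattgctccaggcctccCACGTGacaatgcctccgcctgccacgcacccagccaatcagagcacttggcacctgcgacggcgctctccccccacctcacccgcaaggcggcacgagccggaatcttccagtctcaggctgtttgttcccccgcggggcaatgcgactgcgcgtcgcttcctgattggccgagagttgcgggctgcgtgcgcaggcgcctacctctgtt
SYCE1, chr10:133565584-133565833, minus strand: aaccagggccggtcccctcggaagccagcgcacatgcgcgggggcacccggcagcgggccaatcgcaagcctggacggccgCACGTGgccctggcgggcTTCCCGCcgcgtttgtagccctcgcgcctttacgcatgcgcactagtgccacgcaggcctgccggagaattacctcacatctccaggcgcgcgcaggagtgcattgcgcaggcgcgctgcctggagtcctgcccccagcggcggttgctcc
REC8, chr14:24171830-24172079, plus strand: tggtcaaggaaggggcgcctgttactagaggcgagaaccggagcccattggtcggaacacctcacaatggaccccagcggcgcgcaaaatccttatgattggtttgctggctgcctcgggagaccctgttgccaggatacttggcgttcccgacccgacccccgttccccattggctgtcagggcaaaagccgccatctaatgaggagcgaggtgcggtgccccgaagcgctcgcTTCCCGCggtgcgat
SYCP2, chr20:59933638-59933887, minus strand: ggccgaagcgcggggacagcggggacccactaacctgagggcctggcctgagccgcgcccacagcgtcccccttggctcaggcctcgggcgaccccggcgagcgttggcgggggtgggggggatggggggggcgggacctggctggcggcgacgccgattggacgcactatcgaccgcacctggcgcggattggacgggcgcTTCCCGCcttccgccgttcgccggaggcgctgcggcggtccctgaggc

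In these stretches *TDRD1* held a pair of E-boxes and 13 CpG sites, *TDRD12* 1 E-box close to the start and 20 CpG sites, and *DAZL* 1 E-box and 23. The *MAEL* stretch held 1 E-box and 22 CpG sites, and *SYCE1* held both motifs and 29. *REC8* and *SYCP2* each held the E2F-type element, with 21 and 33 CpG sites. *DAZL*, *MAEL* and *SYCE1* have a second RefSeq window without an E-box, so the motif belongs to 1 of their starts. The arrays do not tell which start was used.

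**Figure D4:**
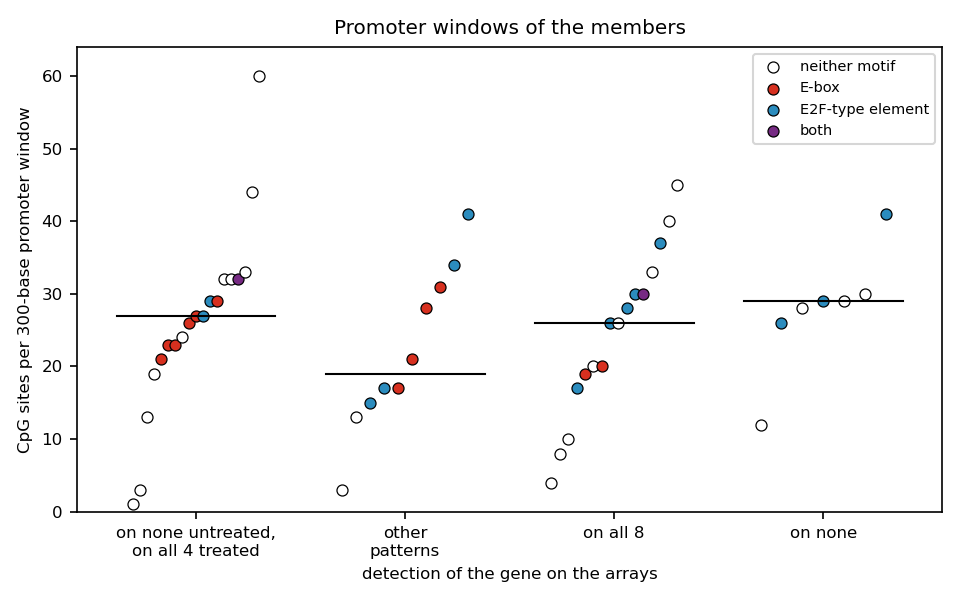
CpG sites per 300-base promoter window (vertical axis) of the 39 members with a RefSeq window, 1 point per window, by the detection class of the gene, with a line at the median. Fill shows the motifs held. The medians are 27 for genes that switched on, 19 for other patterns, 26 for genes on throughout and 29 for genes that stayed off. An E-box is in 0 of the 7 windows of the stayed-off class, near the share of 7.26% over windows of all genes.

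The study asked whether *TET1* depletion alters the response to 5-aza-dC. Without treatment, 0 of the 35 tested members differed between knockdown and control clones (limma), against 0.0203% of all gene names. At an unadjusted p below 0.05 there were 4, where 8.22% of gene names were. By the methods' t-test there were 2, and the share over all gene names was not counted for that test. After 5-aza-dC 3 of the 35 differed, where 18.4% of gene names did. *TDRD6* (log2 difference -0.70 ± 0.16, adjusted p = 0.0311, 0.0154 to 0.186 over its 20 alternatives) and *GTSF1* (-0.92 ± 0.15, adjusted p = 0.0115, 0.00480 to 0.167 over its 20 alternatives) were lower in the knockdown clones. The *TDRD6* call was lost without any 1 array other than untreated TET1-KD1 and untreated TET1-KD2 (adjusted p = 0.0607 to 0.121), and the *GTSF1* call was lost without the treated CONT2 array (adjusted p = 0.0531). After calibration by the spike-ins the *GTSF1* difference was -0.32 (adjusted p = 0.151). *SYCP1*, below background on both treated control arrays, was at least 1.02-fold higher (adjusted p = 0.0138), a call lost without either the treated CONT2 or the treated TET1-KD1 array (adjusted p = 0.0611 to 0.0614) and with dim values raised (adjusted p = 0.942). Its log2 difference turned to -0.06 with another background correction (adjusted p = 0.795, 0.00177 to 0.942 over its 19 alternatives). *GTSF1* was the only one of the 35 whose response differed past the threshold, as described above. A p that misses the threshold does not show that the responses were alike.

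**Figure D5:**
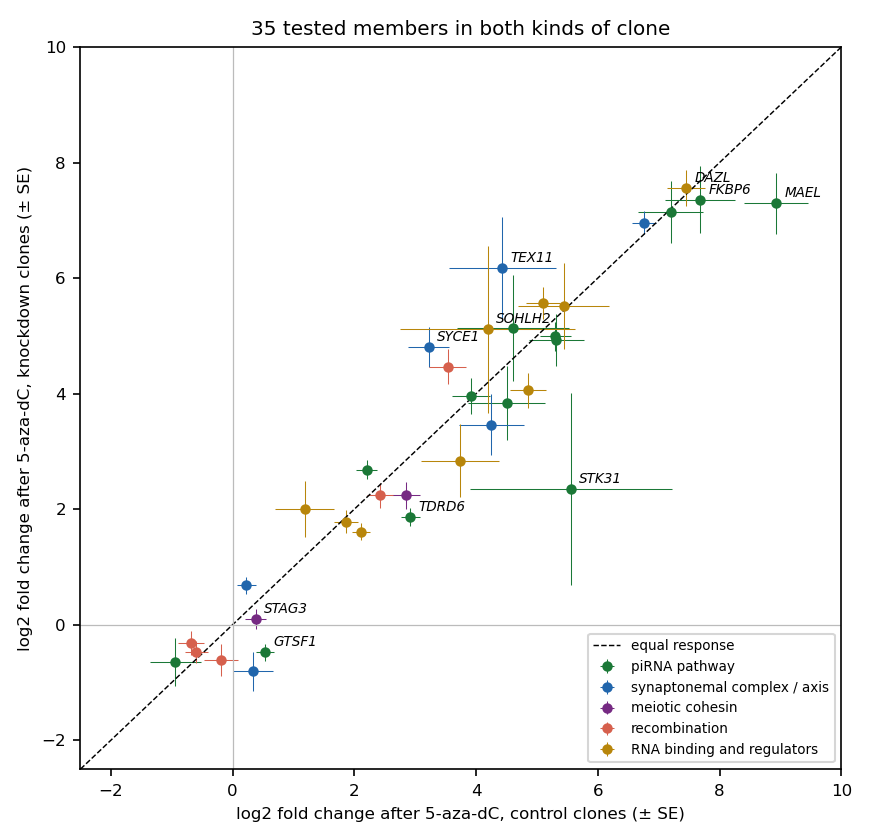
Log2 fold change after 5-aza-dC in the control clones (horizontal axis) and the knockdown clones (vertical axis) for the 35 tested members, with SE, colored by role. Points lie on both sides of the dashed line of equal response. *MAEL*, *TDRD6* and *STK31* lie below it, and *TEX11*, *SYCE1* and *SOHLH2* lie above it. The place of *STK31* rests on an untreated TET1-KD1 value that stood apart. Fold changes of genes below background when untreated rest on such values.

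With 1 array per clone, the treated signal of TET1-KD1 was below that of TET1-KD2 for 23 of the 24 members that rose in both kinds of clone (95.8%). The same held for 76.1% of the 1675 gene names that rose in both. For treated minus untreated signal the shares were 87.5% and 67.3%, and TET1-KD1 had the lowest response of the 4 clones for 66.7% and 47.9%. Many of these responses rest on untreated values that have no order. The genes were chosen by their rise and do not replicate the clones. *TET1* signal was lower in TET1-KD1 than in TET1-KD2, as given above, and its part in the order of these signals was not tested. Which members differed after 5-aza-dC changed when the treated TET1-KD2 or the treated TET1-KD1 array was left out. The share of all gene names under these settings was not counted, so no count of members is read from them.

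A further list held 47 piRNA and meiosis genes that are not among the 46. Of its 29 tested genes, 9 rose and 1 fell in the knockdown clones and 14 rose and 4 fell in the control clones, with median log2 fold changes of 0.49 and 0.78. Over all gene names 9.45% rose and 3.09% fell in the knockdown clones, and 20.5% rose and 21.3% fell in the control clones, with medians of -0.06 and -0.05. The filter on dim probes inflates the counts of this list too. Of its 26 genes that were silent untreated, 8 were above background on all 4 treated arrays, where 5.92% of all silent gene names were. The 5 with the smallest adjusted p in the knockdown clones were all below background untreated, so they passed the filter only through treated arrays. *C6orf221*, the older symbol of the oocyte gene *KHDC3L*, read 12.26, 11.87, 10.04 and 10.62 treated and rose at least 215-fold in the control clones (adjusted p = 2.62e-05) and at least 61.0-fold in the knockdown clones (adjusted p = 4.35e-05). *SOHLH1*, the partner of *SOHLH2*, read 11.81, 11.86, 10.42 and 11.71 and *LIN28B*, which blocks let-7 processing, 12.42, 12.51, 11.19 and 12.03. They rose at least 101-fold and at least 148-fold in the knockdown clones. *RNF17*, a Tudor protein, and *HENMT1*, which methylates the 3′ ends of piRNAs, rose at least 8.69-fold and at least 27.9-fold there (adjusted p = 5.84e-05 and 6.64e-05).

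Of 25 genes of late spermatids, among them protamines and transition proteins, 13 were below background on all untreated arrays and 0 of the 13 were above it on all 4 treated arrays, where 5.92% of all silent gene names were. Of 10 tested genes, 0 rose and 0 fell in the knockdown clones (limma), where 9.45% of gene names rose and 3.09% fell, so counts of 0 among so few genes lie near the background. The smallest adjusted p was that of *HSPA1L* (0.0728), a heat shock protein gene. In the control clones *HSPA1L* rose (1.88 ± 0.28, adjusted p = 0.00334), and *LDHC* and *ODF2* fell by 1.49 and 0.62 on the log2 scale (adjusted p = 0.00347 and 0.0418). The 14 PRC1.6 subunit genes were all above background on all 8 arrays. In the knockdown clones *HDAC1* alone fell, by 0.69 (adjusted p = 0.0337), and 0 rose, while *L3MBTL2*, *TFDP1*, *WDR5* and *MAX* had adjusted p of 0.0565, 0.0586, 0.0772 and 0.161. In the control clones 3 of the 14 rose and 3 fell, near the shares over all gene names (20.5% and 21.3%).

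Some markers of other cell types also rose with 5-aza-dC, where 9.45% of all gene names rose in the knockdown clones, and 20.5% rose and 21.3% fell in the control clones. Of 6 testis somatic markers, 1 of 5 tested rose in the knockdown clones and 2 in the control clones, and their summed signal was 9.47 to 10.02 on the untreated and 9.76 to 10.99 on the treated arrays. *INSL3*, *CYP17A1*, *AMH* and *INHBB* were above background on all 8 arrays, and *STAR* on all treated arrays but TET1-KD1 and on no untreated array. *INHBB* read 7.81, 6.94, 6.08 and 7.16 untreated and 10.30, 9.78, 8.24 and 9.96 treated. *FSHR*, which defines Sertoli cells, was above background on the untreated CONT2 array alone (6.99). Of 4 fibroblast markers, 0 of 2 tested rose in the knockdown clones and 1 in the control clones (8.40 to 8.76 untreated, 9.19 to 9.75 treated). *COL1A1* was above background on all 8 arrays, *PDGFRB* on all treated arrays but TET1-KD1 and on no untreated array, and *COL1A2* and *COL3A1* on no array. Of 3 endothelial markers, 1 rose in the knockdown clones, and 2 rose and 1, *CDH5*, fell in the control clones (6.56 to 6.85 untreated, 7.59 to 8.16 treated). Of 8 tested colon markers, 1 rose and 0 fell in the knockdown clones, and 2 rose and 3 fell in the control clones. The colon markers summed to 18.32 to 18.46 untreated and 18.33 to 18.60 treated. The part of other cells in the signals was not tested.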

How the data were processed

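Total RNA was labeled with 1 dye and hybridized to 8 Agilent arrays of 60-base probes. The deposited spot intensities were made by the authors with Agilent Feature Extraction (10.7 per the labels), which subtracts the background, corrects trends across the array and replaces signals near background with surrogate values. The deposited series table holds the same intensities rounded, all within 0.5%, and served as an alternative. The methods name GeneSpring and t tests with Benjamini-Hochberg correction. Here each array was divided by its 75th percentile, set to at least 1 and taken to log2, without outlier spots, and repeated spots were averaged. A probe was above background where at least 0.5 of its spots were well above it, and it was tested where some condition had both of its arrays above background (27287 of 50543 probes). The 4 conditions were fitted over all 8 arrays with limma 3.58.1 (R 4.3.3). P-values were adjusted over all tested probes by the Benjamini-Hochberg method, with a threshold of 0.05, and each gene was counted by its brightest tested probe.

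The 30 members called in at least 1 comparison were named with all values, and the other tested members by their range or values. The members and lists were chosen with earlier results of these data known. Samples were grouped by title. Arrays with the same number within a kind of clone come from the same clone, and their deviations from the group means correlated (r = 0.198 for control and 0.476 for knockdown clones), so clone was used as a block in an alternative fit. Replicates are clones of 1 line, and no spot-identical arrays were found. The number of arrays limits the precision. The fit was tested on simulated data with known changes. Other alternatives covered background correction, scaling, filters, the arrays used, the t-test and each array left out. The result of 1 list of blood cell markers is not reported here.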

Additional observations from a re-analysis of the deposited data

Results flagged for a closer look

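The response of *GTSF1*, a cofactor of PIWI proteins, passed the test of a difference between the kinds of clone by a small margin. Its signal was higher after treatment in both control clones and lower in both knockdown clones, and the difference between the responses was -1.01 on the log2 scale (adjusted p = 0.0486, limma, 0.0283 to 0.330 over its 20 alternatives). The call was lost in 16 of these 20, the clone as a block among them (adjusted p = 0.0579), and the difference was -0.34 after calibration by the spike-ins. The arrays of treated control clones made up the second slide, so the difference cannot be told apart from the slide.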

How the results depend on the processing

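Of 58 calls on single members, 16 kept their direction and stayed past the threshold under every alternative run for them, and 2 changed sign. These were *GTSF1* in the control clones after spike-in calibration (-0.12) and *SYCP1* after 5-aza-dC with normexp background correction (-0.0598). The methods' t-test lost 39 of 57 calls. With it 0 members were higher in the knockdown clones, 0 were lower in the control clones and 0 differed after 5-aza-dC between the kinds of clone, and the last count was also 0 with only the 4 arrays compared. Among the 13 members with a probe above background on all 8 arrays, 6 were higher in the knockdown and 7 in the control clones. For most alternatives the share over all gene names was not counted, so such counts of members have no background beside them. Members lower in the control clones numbered 0 without the filter and 4 with the replicate block and a GC-trend correction. Members lower in the knockdown clones numbered 2 with the replicate block and 5 with the block and GC correction. Members whose response differed numbered 0 with normexp, without the filter, with the block and GC correction, with the mean of probes and with dim values raised, and 2 with the series table, an offset of 50, spike-in calibration and probes above background on all 8 arrays. With 1 array left out in turn, members higher numbered 20 to 24 in the knockdown and 24 to 26 in the control clones, members lower in the control clones 0 to 2, members differing 0 to 1 untreated (*STK31*, without untreated TET1-KD2) and 0 to 5 treated, and members whose response differed 0 to 1 (*STK31* without untreated TET1-KD2 or *MAEL* without treated TET1-KD2). The count of 0 treated came without the treated CONT2 array. Apart from the calls named with the genes, the replicate block changed no other call on members. The causes were not tested. A lone clone left in a group was assumed to vary like the others. Signals near background limit all folds given as bounds.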
